A study of Mus musculus with 6 samples.

Results

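The genes described here lead from the supply of glycerol 3-phosphate to triglyceride. The set was chosen by gene name and holds 10 of the 56884 genes listed for each library. *Pck1*, *Gpd1*, *Gk* and *Aqp7* supply the glycerol backbone, and *Gpam*, *Gpat3*, *Agpat2*, *Lpin1*, *Dgat1* and *Dgat2* attach the fatty acids. All 10 passed the filter on low values and were among the 15426 genes tested.

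The cells were a mouse line from the stromal vascular fraction (SVF) of subcutaneous white adipose tissue (scWAT), the fraction that contains adipocyte precursors. They overexpressed PPARγ2, the receptor that drives adipocyte differentiation, carrying either K382Q, which mimics an acetylated lysine, or K382R, which mimics a deacetylated lysine. Per the study's methods, each mutant was delivered by a retroviral vector and stable lines were selected with puromycin. RNA was sequenced from 3 biological replicates of each mutant at day 2 of beige differentiation. Both mutants received the same medium with 500 µM isobutylmethylxanthine, 125 µM indomethacin, 2 µg/mL dexamethasone, 0.5 µM rosiglitazone (a PPARγ agonist), 1 nM T3 and 5 µg/mL insulin. No line without a mutant receptor is compared here, so every difference is between the mutants. Whether the replicates of a mutant came from separate transductions is not given in the sources used here. If they did not, the mutation and the transduced line cannot be told apart.

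Triglyceride is built on glycerol 3-phosphate. Adipocytes make this backbone from dihydroxyacetone phosphate with glycerol-3-phosphate dehydrogenase (GPD1), from pyruvate through glyceroneogenesis with phosphoenolpyruvate carboxykinase (PCK1), or from free glycerol with glycerol kinase (GK), and AQP7 is the channel through which glycerol crosses the adipocyte membrane. Acyltransferases of the GPAT and AGPAT families then add a fatty acid each to give phosphatidate, lipins remove its phosphate to give diacylglycerol, and DGAT1 or DGAT2 adds the last fatty acid. Several genes of the pathway, such as *Pck1*, *Gk* and *Aqp7*, are known targets of PPARγ in adipocytes.

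The sequence just upstream of the members was scanned for 4 motifs on both strands, because nuclear receptors, cAMP signalling and carbohydrate-responsive factors are all known to act on this pathway. The motifs were AGGTCA, the core recognised by nuclear receptors, a direct repeat of that core with 1 base between the copies, the kind that PPARγ and RXR bind, TGACG, the core of the cAMP response element, and CACGTG, an E-box. Each direct repeat also counts as AGGTCA. RefSeq promoter sequence (GRCm38.p6, the 250 bases before each start) was found for 7 of the 10 genes in 9 windows, and *Gpd1*, *Dgat1* and *Dgat2* had no window in the table. AGGTCA was present in 4 of the 9 windows against 14.0% of the 32851 windows of all genes, TGACG in 3 windows against 17.8%, CACGTG in 1 window against 6.02%, and the direct repeat in 0 windows against 0.0335%. The windows below are shown for the members of the glycerol arm that held a motif and for *Lpin1*, the member with the largest positive difference between the mutants. Each is written 5′ to 3′ on the strand of its gene, and capitals mark a motif.
Pck1 promoter window, GRCm38.p6 chr2:173152823-173153072, plus strand: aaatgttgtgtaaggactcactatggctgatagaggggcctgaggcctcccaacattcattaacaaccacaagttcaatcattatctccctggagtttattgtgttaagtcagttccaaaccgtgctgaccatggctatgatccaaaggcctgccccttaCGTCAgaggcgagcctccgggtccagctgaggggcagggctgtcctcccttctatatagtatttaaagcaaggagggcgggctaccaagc
Gk promoter window, GRCm38.p6 chrX:85776820-85777069, minus strand: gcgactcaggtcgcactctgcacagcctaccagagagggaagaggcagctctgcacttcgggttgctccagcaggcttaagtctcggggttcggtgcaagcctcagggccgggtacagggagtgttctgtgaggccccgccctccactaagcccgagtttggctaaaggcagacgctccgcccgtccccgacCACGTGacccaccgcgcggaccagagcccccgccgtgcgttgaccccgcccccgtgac
Aqp7 promoter window, GRCm38.p6 chr4:41047963-41048212, minus strand: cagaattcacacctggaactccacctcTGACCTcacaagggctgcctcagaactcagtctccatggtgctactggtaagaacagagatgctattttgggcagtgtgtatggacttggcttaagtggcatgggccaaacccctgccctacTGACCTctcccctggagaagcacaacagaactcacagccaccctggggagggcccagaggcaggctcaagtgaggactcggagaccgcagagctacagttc
Lpin1 promoter window, GRCm38.p6 chr12:16610967-16611216, minus strand: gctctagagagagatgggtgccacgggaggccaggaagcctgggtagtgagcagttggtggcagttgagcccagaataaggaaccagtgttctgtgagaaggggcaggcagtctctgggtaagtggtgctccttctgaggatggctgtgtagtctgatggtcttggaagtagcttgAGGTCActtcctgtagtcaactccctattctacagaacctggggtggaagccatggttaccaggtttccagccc

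In the *Pck1* window the capitals are the reverse complement of TGACG, 90 to 86 bases before the start. In the *Gk* window they are the E-box, 58 to 53 bases before the start. The *Aqp7* window shown holds the AGGTCA core at 223 to 218 and at 101 to 96 bases before the start, each on the opposite strand, and the *Lpin1* window holds it at 74 to 69 bases on the gene's own strand. Of the windows not shown, 1 of *Gpam* held 1 AGGTCA and 2 TGACG motifs, that of *Gpat3* held 1 TGACG, and the other of *Aqp7*, which overlaps the window shown, held 1 AGGTCA, the same site as the one 223 to 218 bases before the start in the window shown. That site is therefore counted in 2 of the 4 windows with AGGTCA. The other *Gpam* window and that of *Agpat2* held none of the 4. A match describes only these letters.

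*Pparg* itself, counted over endogenous and vector-derived reads without distinction, was listed at 1333, 1164 and 1104 TPM (a gene's share of all transcripts after correction for its length, on a scale with the same total in every library) in the K382Q libraries and at 1590.0, 1632 and 1612 TPM in the K382R libraries. The log2 fold change, K382Q minus K382R, was -0.43 (SE 0.0638; limma with Benjamini-Hochberg adjustment, adjusted p = 0.000977), so that the level of the receptor transcript moved with the mutation. For the protein, the paper describes largely similar levels of both mutants by Western blot. Adipocyte markers were abundant in all libraries, with a summed level of 53576 to 57460 TPM in K382Q and 43758 to 45056 TPM in K382R cells. Most of that sum was *Fabp4*, the fatty acid binding protein of adipocytes, at 46394 to 50292 TPM in K382Q and 37390.4 to 38541 TPM in K382R cells, and its call as higher was lost with quantile normalization or with no filter. *Adipoq*, which encodes adiponectin, was lower in K382Q cells (log2 fold change -1.28, adjusted p = 7.63e-07), while *Cfd*, which encodes adipsin (1.23, adjusted p = 6.92e-07), and the fatty acid transporter gene *Cd36* (0.43, adjusted p = 2.24e-05) were higher. Of the 8 adipocyte markers tested, 5 were higher and 2 lower in K382Q cells, where 11.1% of all 15426 tested genes were higher and 36.9% lower, and *Lep* was listed at 0 throughout. *Cidec* lost its call as higher with quantile normalization, and *Lpl* its call as lower with median-ratio scaling. The 8 markers of adipocyte precursors summed to 463 to 509 TPM in K382Q and 774 to 811 TPM in K382R cells. Nearly all of that sum was *Ly6a*, at 450 to 498 TPM in K382Q and 752 to 786 TPM in K382R cells. The 4 that were tested (*Pdgfra*, *Pdgfrb*, *Ly6a* and *Thy1*) were all lower in K382Q cells, while *Dpp4* was at 0. The part of these differences in the results that follow was not tested, and in such bulk samples fewer cells of a type and less RNA per cell cannot be told apart. Leukocyte markers summed to at most 5.10 TPM, nearly all of it *Cd68*, and *Adgre1* and *Cd3e* were at 0. Muscle lineage markers (*Myod1*, *Myf5* and *Myog*) and the brown depot genes *Zic1* and *Meox1* were at 0 in every library, and *Hoxc9*, a white and beige depot gene, was at 16.8 to 18.9 TPM in K382Q and 25.3 to 25.9 TPM in K382R cells. The libraries held 5.95 to 8.15 Gb of aligned sequence.

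The 10 genes split in direction. *Gpd1*, *Aqp7*, *Agpat2* and *Lpin1* were higher in K382Q cells and *Gk*, *Gpat3* and *Dgat1* were lower, each at an adjusted p-value below 0.05. That is 4 of 10 higher, where 11.1% of all tested genes were called higher, and 3 of 10 lower, where 36.9% were called lower. Both shares depend on the scaling, since median-ratio scaling called 3057 of the 15426 genes higher and 3153 lower, and of the members 5 and 3. *Pck1*, *Gpam* and *Dgat2* did not pass the test. None of the 10 passed a fold change over 2, while 3.88% of all tested genes did so with an adjusted p under 0.05. The 3 K382Q libraries lay entirely above or below the 3 K382R libraries for 8 of the 10 genes, against 57.0% of all tested genes. The median log2 fold change of the 10 was -0.04, beside -0.14 over all tested genes, and it turned positive (0.074 to 0.16) with FPKM, with a TPM of at least 1 and with median-ratio or quantile scaling.

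**Figure D1:**
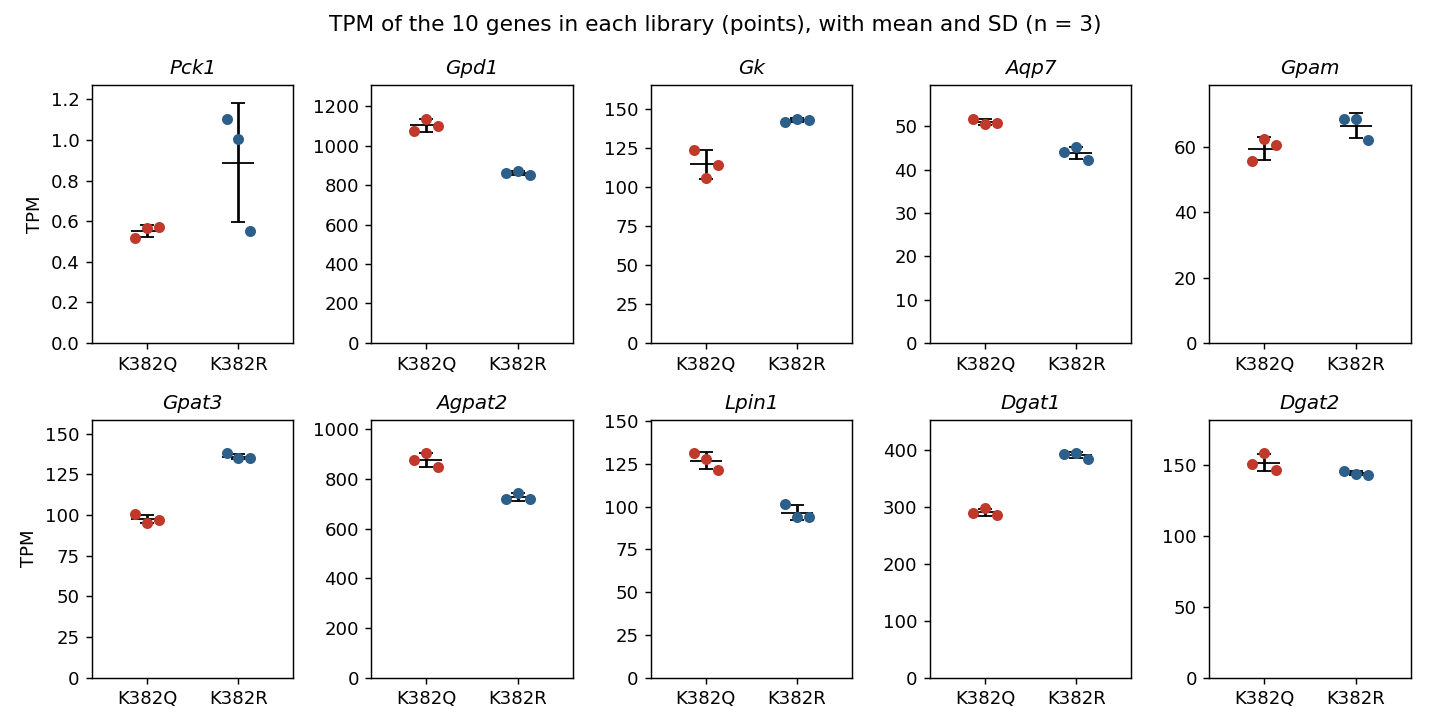
TPM (vertical axis, linear from 0) of each of the 10 genes in each K382Q (red) and K382R (blue) library, with the mean and SD as black lines (n = 3 per mutant). The points of the 2 mutants overlap for Pck1 and Gpam and are separate for the other 8 genes.

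Within the glycerol arm, *Pck1*, the cytosolic enzyme of glyceroneogenesis, was almost silent. It lay on GRCm39 at chr2:172994841-173001066 (plus strand). The K382Q libraries gave 0.519, 0.564 and 0.571 TPM and the K382R libraries 1.11, 1.01 and 0.553 TPM, at a mean read depth per base of only 1.28 to 3.33. K382R replicate 3 lay among the K382Q libraries and the other K382R libraries above them. The log2 fold change was -0.38 (95% interval -0.87 to 0.11; limma, adjusted p = 0.181), so the difference did not pass the test, and the pseudocount of 0.5 TPM draws the value of so low a gene towards 0. Over 13 alternatives the log2 fold change ran from -0.57 to -0.26 with an adjusted p of 0.0526, without K382R replicate 3, to 0.416. *Pck2*, which encodes the mitochondrial form of the enzyme, carried at least 99.28% of the summed TPM of the pair in every library. It was listed at 192, 192 and 184 TPM in K382Q and 152, 151 and 153 TPM in K382R cells and was higher in K382Q cells (log2 fold change 0.32, SE 0.0293, adjusted p = 8.61e-05).

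*Gpd1*, the cytosolic dehydrogenase that reduces dihydroxyacetone phosphate, was the most abundant of the 10 genes in both mutants (chr15:99615396-99622886, plus strand). It was at 1073, 1138 and 1101 TPM in K382Q and 861, 870.2 and 850.1 TPM in K382R cells. All K382Q libraries lay above all K382R libraries, by a mean ratio of 1.28 (log2 fold change 0.36, SE 0.0305, adjusted p = 5.78e-05). The gene overlaps Gm16537, an antisense gene at 2.04 to 3.41 TPM. Whether reads were assigned by strand is not given in the sources used here. *Gpd1l*, a related dehydrogenase, made up 1.56 to 2.78% of the summed TPM of the pair and was lower in K382Q cells (log2 fold change -0.32, adjusted p = 0.00155). *Gpd2*, the mitochondrial enzyme that oxidises glycerol 3-phosphate, was at 15.3 to 17.5 TPM with overlapping libraries (log2 fold change 0.04, 95% interval -0.12 to 0.21, adjusted p = 0.648). With median-ratio scaling it stood at 0.19 and was not called, and with quantile normalization it was called higher (0.21, adjusted p = 0.0423).

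*Gk*, which phosphorylates free glycerol, went the other way from *Gpd1* (chrX:84745543-84820425, minus strand). The K382Q libraries gave 124, 106 and 114 TPM and the K382R libraries 142, 144 and 143 TPM. The K382Q libraries were all below the K382R libraries and varied more among themselves, with a coefficient of variation of 8.05% against 0.835%. The log2 fold change was -0.32 (SE 0.0551, adjusted p = 0.00207). *Gpd1* exceeded *Gk* 8.65-, 10.8- and 9.62-fold in the K382Q libraries and 6.08-, 6.04- and 5.94-fold in the K382R libraries, a ratio within each library that does not depend on its scaling.

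*Aqp7*, the glycerol channel of adipocytes, was at 51.7, 50.5 and 50.6 TPM in K382Q and 44.1, 45.1 and 42.3 TPM in K382R cells (chr4:41033074-41048139, minus strand). The K382Q libraries were all higher, by a mean ratio of 1.16 (log2 fold change 0.22, SE 0.0387, adjusted p = 0.00257). *Aqp7* held 96.1 to 98.0% of the summed TPM of the glycerol channels *Aqp3*, *Aqp7* and *Aqp9*, and this share overlapped between the mutants. *Aqp9* was low, at 0.701 to 1.36 TPM in K382Q and 0.335 to 0.469 TPM in K382R cells, and was higher in K382Q cells (log2 fold change 0.74, adjusted p = 0.0221). That call was lost without replicate 1 or 3 of either mutant, with a largest adjusted p of 0.0817 over its 13 alternatives. *Aqp3* was also low, at 0 to 0.694 TPM in K382Q and 0.783 to 1.23 TPM in K382R cells, without overlap. Its difference, with lower K382Q values, did not pass the test (log2 fold change -0.84, adjusted p = 0.0828). *Pgp*, whose product can hydrolyse glycerol 3-phosphate back to glycerol, was at 164, 185 and 172 TPM in K382Q and 123, 127 and 119 TPM in K382R cells, with all K382Q libraries higher (log2 fold change 0.49, adjusted p = 0.00011).

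Glycerol-3-phosphate acyltransferases commit the backbone to glycerolipid. *Gpat3*, the endoplasmic reticulum form that adipocytes induce as they differentiate, was at 100.4, 95.3 and 96.6 TPM in K382Q and 138, 135 and 135 TPM in K382R cells (chr5:100993579-101046968, plus strand). Every K382Q library was below every K382R library. The log2 fold change was -0.48 (SE 0.0320, adjusted p = 1.78e-05), the lowest of the 10 genes, and its start overlaps 4930458D05Rik, an antisense gene at no more than 2.08 TPM. Other genes that overlap *Gk*, *Gpam* or *Gpat3* were at no more than 0.393 TPM. *Gpam*, the mitochondrial form, was at 55.6, 62.4 and 60.5 TPM in K382Q and 68.7, 68.6 and 62.1 TPM in K382R cells (chr19:55055700-55115670, minus strand). K382R replicate 3 fell within the K382Q range and the others above it. The log2 fold change was -0.16 (95% interval -0.29 to -0.02, adjusted p = 0.0565), and *Gpam* was called lower without K382Q replicate 2 (-0.19, adjusted p = 0.0453) or without K382R replicate 3 (-0.21, adjusted p = 0.0259). With other scalings it was nearer to 0, at -0.074 with FPKM (adjusted p = 0.337), -0.0072 with median-ratio scaling (adjusted p = 0.943) and -0.0014 with quantile normalization (adjusted p = 0.988). *Gpat4*, the other endoplasmic reticulum form, was lower in K382Q cells (32.7 to 33.4 against 39.3 to 41.3 TPM, log2 fold change -0.29, adjusted p = 0.000599), and *Gpat2* was at most 0.0526 TPM. Summed over the family, the level was 189 to 191 TPM in K382Q and 237 to 248 TPM in K382R cells. *Gpat3* supplied 49.96 to 53.2% of that sum in K382Q and 55.6 to 56.8% in K382R cells, and *Gpam* 29.4 to 32.7% and 26.1 to 28.2%.

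*Agpat2*, the acyltransferase for lysophosphatidate whose loss causes congenital lipodystrophy, was at 877, 902 and 849 TPM in K382Q and 719, 745 and 717 TPM in K382R cells (chr2:26483069-26494429, minus strand). All K382Q libraries were higher, by a mean ratio of 1.21 (log2 fold change 0.27, SE 0.0326, adjusted p = 0.000344). Its last 64 bases overlap *Egfl7* on the opposite strand, at 12.5 to 17.9 TPM. *Agpat2* held 72.6 to 73.4% of the summed TPM of *Agpat1* to *Agpat5* in K382Q and 70.1 to 70.7% in K382R cells. Its isoenzymes did not share a direction. *Agpat3* was higher in K382Q cells (182 to 195 against 146 to 148 TPM, log2 fold change 0.35, adjusted p = 8.7e-05) and *Agpat4* lower (38.6 to 42.4 against 52.2 to 52.4 TPM, log2 fold change -0.35, adjusted p = 0.000432), in the same sense with FPKM and with median-ratio and quantile scaling. *Agpat1* was lower on TPM (log2 fold change -0.22, adjusted p = 0.00264) but not called with median-ratio scaling (-0.07) or quantile normalization (-0.08).

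*Lpin1*, the phosphatidate phosphatase that also acts as a transcriptional coactivator, had the largest positive difference of the 10 genes (chr12:16585670-16696967, minus strand). It was at 131, 128 and 122 TPM in K382Q and 101, 93.9 and 93.9 TPM in K382R cells, with all K382Q libraries higher. The log2 fold change was 0.39 (SE 0.0443, adjusted p = 0.000235). *Lpin1* held 82.4 to 83.2% of the summed lipin TPM in K382Q and 78.0 to 81.8% in K382R cells. *Lpin2* and *Lpin3* overlapped between the mutants and did not pass the test (adjusted p = 0.349 and 0.262), although *Lpin2* was called higher with median-ratio and quantile scaling (log2 fold change 0.25 in each). The 3 lipid phosphate phosphatases of the plasma membrane, which can also hydrolyse phosphatidate, were all lower in K382Q cells under every alternative tried. *Plpp3* was at 93.8, 91.3 and 88.9 TPM against 171, 176 and 181 TPM, with no overlap and a log2 fold change of -0.94 (adjusted p = 1.37e-06). *Plpp1* (log2 fold change -0.54, adjusted p = 0.000116) and *Plpp2* (-0.46, adjusted p = 0.000295) had smaller differences.

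**Figure D2:**
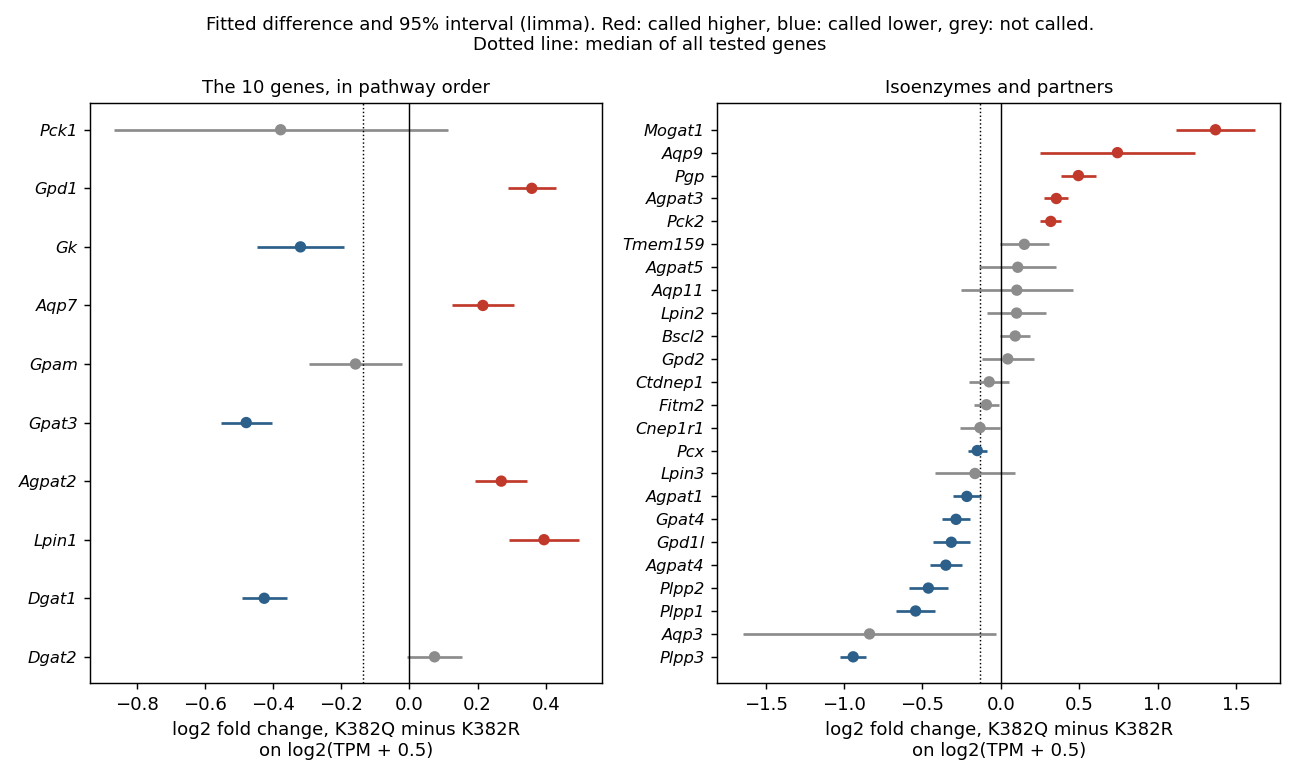
Log2 fold change, K382Q minus K382R, on log2(TPM + 0.5) with its 95% interval from limma for the 10 genes in pathway order (left) and for the other tested pathway genes in order of size (right). Points right of the solid line at 0 are higher in K382Q cells, and the dotted line marks the median of all tested genes at -0.14.

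The final acylation is shared by a pair of unrelated enzymes, of which *Dgat1* was lower in K382Q cells and *Dgat2* did not pass the test on TPM. *Dgat1*, which can esterify fatty acids released by lipolysis, was at 289, 298 and 285 TPM in K382Q and 393, 394 and 385 TPM in K382R cells (chr15:76386215-76396153, minus strand). The K382Q libraries were all lower (log2 fold change -0.43, SE 0.0283, adjusted p = 1.74e-05). *Dgat2*, which is linked to newly made fatty acids, was at 150.9, 158.6 and 146.8 TPM in K382Q and 146.0, 143.7 and 143.6 TPM in K382R cells (chr7:98802865-98831926, minus strand). The libraries did not overlap, but the lowest K382Q and highest K382R values were close, and on TPM the gene did not pass the test (log2 fold change 0.07, 95% interval -0.01 to 0.16, adjusted p = 0.123). It was called higher in K382Q cells with FPKM (0.16, adjusted p = 0.00781), median-ratio scaling (0.23, adjusted p = 0.00261) and quantile normalization (0.18, adjusted p = 0.00454). The ratio of *Dgat1* to *Dgat2* within a library was 1.92, 1.88 and 1.94 in K382Q and 2.69, 2.74 and 2.68 in K382R cells, or 1.91 ± 0.0329 against 2.70 ± 0.0341 (SD, n = 3). *Dgat1* thus held 65.2 to 66.0% of the pair's TPM in K382Q and 72.8 to 73.3% in K382R cells, the widest gap in share among the 7 steps at -7.35 percentage points. *Mogat1*, which makes diacylglycerol from monoacylglycerol and so bypasses the glycerol 3-phosphate route, was low but higher in K382Q cells, at 8.05, 7.99 and 7.55 TPM against 2.47, 3.20 and 2.59 TPM (log2 fold change 1.37, SE 0.108, adjusted p = 4.02e-05).

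**Figure D3:**
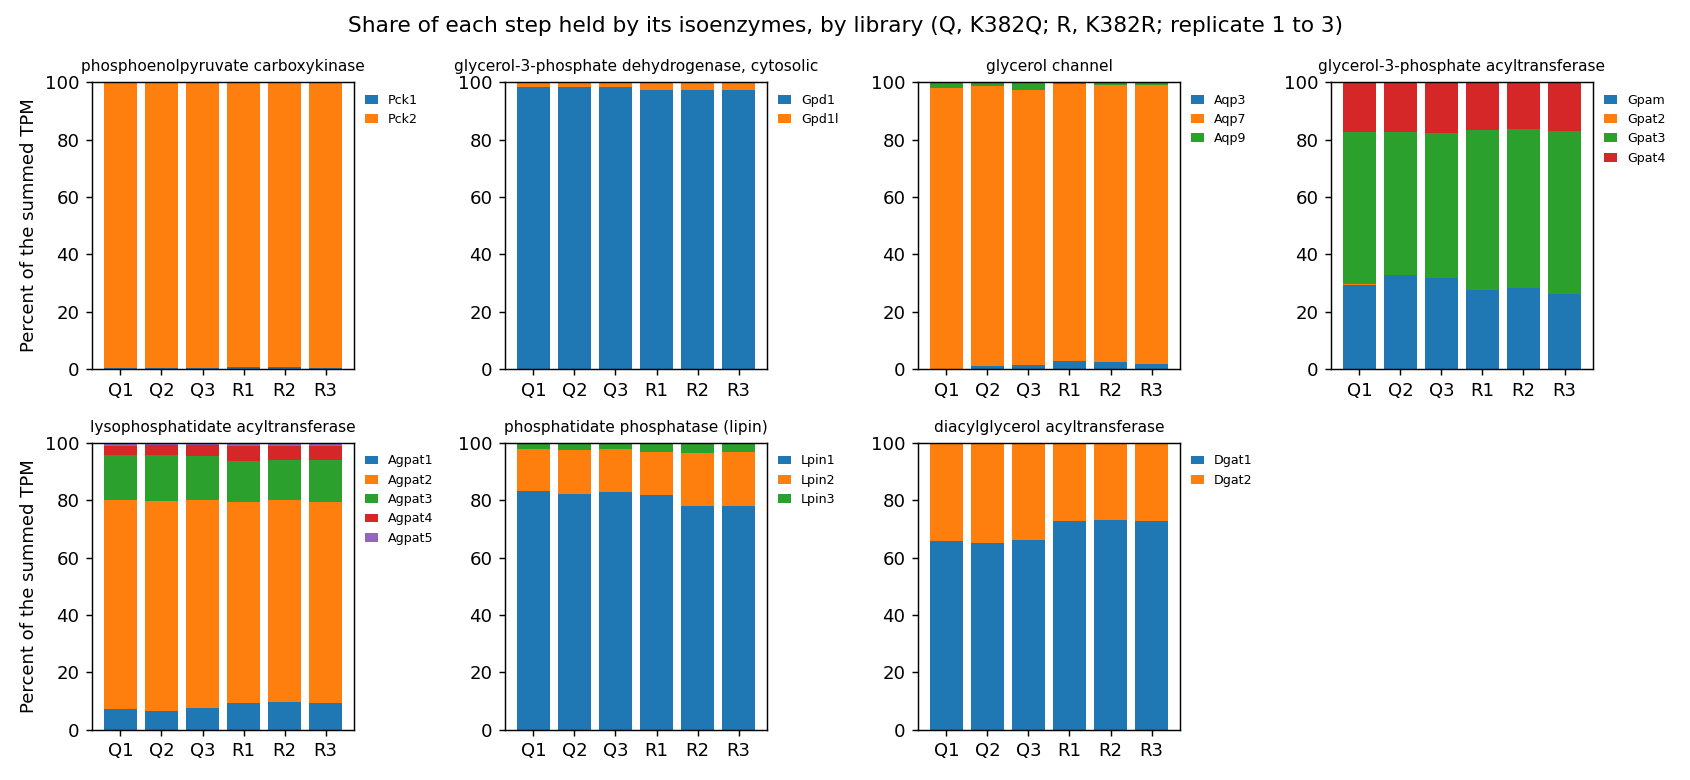
Percent of the summed TPM of each step (vertical axis, 0 to 100) held by each isoenzyme, with 1 stacked bar per library (Q1 to Q3, K382Q; R1 to R3, K382R). Dgat1 fills 65.2 to 66.0% of its step in K382Q and 72.8 to 73.3% in K382R libraries, and Pck2 fills nearly all of its own.

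By level, which TPM allows between genes because it is corrected for length, the order in K382Q cells was *Gpd1*, *Agpat2*, *Dgat1*, *Dgat2*, *Lpin1*, *Gk*, *Gpat3*, *Gpam*, *Aqp7* and *Pck1*. In K382R cells the first 4 and the last 3 held the same places, and *Gk* and *Gpat3* stood above *Lpin1*, which dropped from the fifth place to the seventh. Neighbours whose libraries overlapped were *Lpin1* and *Gk* in K382Q cells, with lowest and highest values of 122 and 124 TPM, whereas in K382R cells *Dgat2* at 143.6 to 146.0 TPM and *Gk* at 142 to 144 TPM overlapped. Summed by step, TPM was higher in K382Q libraries for the carboxykinases, the cytosolic dehydrogenases, the glycerol channels, the AGPATs and the lipins, with log2 ratios of the mean totals of 0.21 to 0.34, and lower for the GPATs (-0.35) and DGATs (-0.27). None of these sums was tested.

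Relative to all tested genes, the members called higher lay in the upper part of the distribution and those called lower in its lower part. The log2 fold changes of *Lpin1*, *Gpd1*, *Agpat2* and *Aqp7* stood at the 91.9, 91.0, 87.7 and 85.1 percentiles, and those of *Gk*, *Dgat1* and *Gpat3* at the 25.3, 16.1 and 13.3 percentiles. *Gpam* stood at the 46.9 percentile, close to the median gene. TPM describes shares of a fixed total, and median-ratio scaling moved the median of all tested genes from -0.14 to 0.0032. It raised the log2 fold change of every member, to 0.55 for *Lpin1*, 0.51 for *Gpd1*, 0.42 for *Agpat2* and 0.37 for *Aqp7*, and to -0.33 for *Gpat3*, -0.27 for *Dgat1* and -0.17 for *Gk*. These 7 genes kept their direction and their call under all 15 alternatives, with a largest adjusted p of 0.0289, for *Gk* (limma with Benjamini-Hochberg adjustment).

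**Figure D4:**
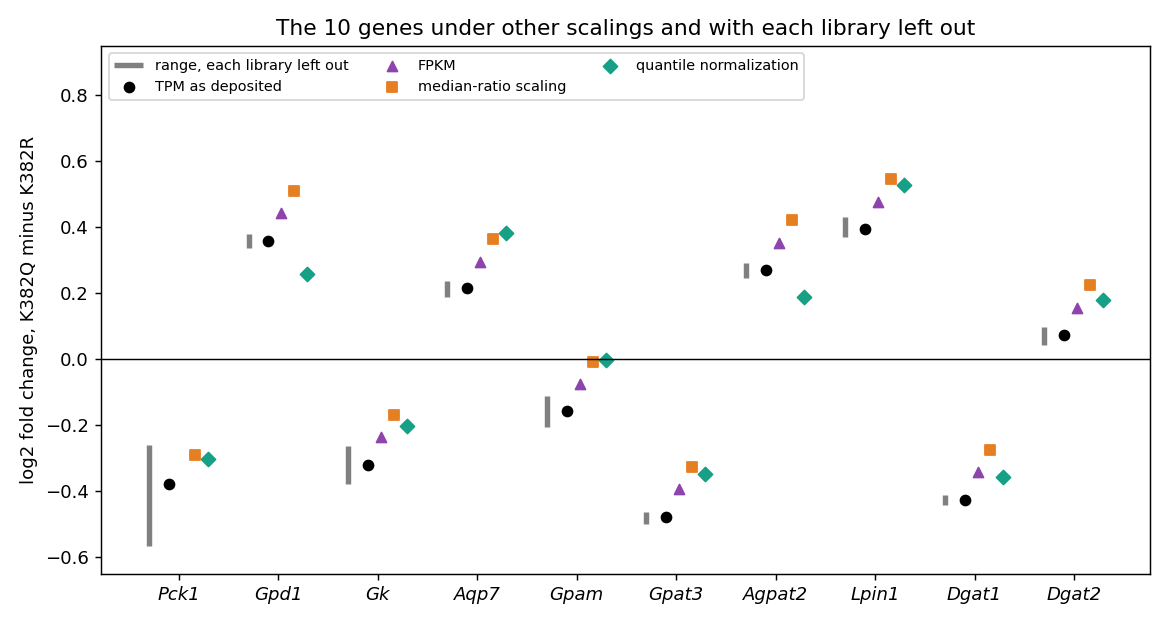
Log2 fold change, K382Q minus K382R, of each of the 10 genes with TPM as deposited (circles), median-ratio scaling (squares) and quantile normalization (diamonds). Triangles mark FPKM, which has no value for Pck1, and grey bars mark the range when each library was left out. No gene crosses 0, and Gpam comes within 0.01 of it under median-ratio scaling.

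Of 27 other genes of the pathway, 24 were tested. The counts in K382Q cells were 5 higher and 8 lower, beside 11.1% and 36.9% of all tested genes, and the median difference on the log2 scale was -0.08. With median-ratio scaling the counts were 8 and 6, and with quantile normalization 9 and 7. Besides those given above, *Pcx*, the pyruvate carboxylase that feeds glyceroneogenesis, was at 641 to 657 TPM in K382Q and 711 to 731 TPM in K382R cells (log2 fold change -0.15, adjusted p = 0.00221), but it was not called with FPKM (-0.07) or with median-ratio scaling (0.0017). Genes that shape the lipid droplet around new triglyceride did not pass the test. *Bscl2*, which encodes seipin, had an adjusted p of 0.103, *Tmem159*, its partner, 0.105, and *Fitm2*, which binds the lipid and helps it to gather in droplets, 0.0579. *Bscl2* and *Tmem159* were called higher with FPKM and with both scalings, and *Fitm2* was called lower without K382Q replicate 1 (adjusted p = 0.0186). *Mogat2*, *Fitm1* and *Gpat2* were too low to be tested.

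Phosphatidate and diacylglycerol are also the branch points to phospholipid. Of 21 genes of this branch, 19 were tested, 3 were higher and 7 lower in K382Q cells, beside 11.1% and 36.9% of all tested genes, and the median was -0.05. With either scaling the counts were 5 and 4. On the mitochondrial cardiolipin route the direction changed between enzymes. *Pgs1*, its committing enzyme, was at 44.9, 44.4 and 43.4 TPM in K382Q and 70.1, 70.1 and 70.3 TPM in K382R cells (log2 fold change -0.66, adjusted p = 4.28e-06), whereas *Crls1*, the cardiolipin synthase, was at 66.2, 65.4 and 66.7 TPM against 49.7, 50.3 and 53.1 TPM (0.37, adjusted p = 0.000141). *Pcyt2*, the regulatory enzyme of phosphatidylethanolamine synthesis, was higher in K382Q cells (log2 fold change 0.46, adjusted p = 0.000218) and *Cdipt*, the phosphatidylinositol synthase, lower (-0.42, adjusted p = 0.0034).

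Triglyceride is broken down again by lipolysis, and 5 of 9 lipolysis genes were higher and 1 lower in K382Q cells (median 0.19), beside 11.1% and 36.9% of all tested genes. The 1 lower was *Abhd5* (limma, log2 fold change -0.18, adjusted p = 0.00259). With median-ratio scaling the counts were 7 and 0. The list mixes lipases with inhibitors, so its counts give no direction for lipolysis itself. The 2 inhibitors of adipose triglyceride lipase were among the higher ones. *Hilpda* was at 477, 463 and 439.9 TPM against 156, 175 and 176 TPM (log2 fold change 1.44, adjusted p = 1.26e-06) and *G0s2* at 979, 1067 and 1062 TPM against 720.2, 679 and 683 TPM (0.58, adjusted p = 2.87e-05). *Mgll*, the monoacylglycerol lipase that releases the last glycerol (0.38, adjusted p = 6.93e-05), and *Ces1d*, a triglyceride hydrolase (0.74, adjusted p = 0.00139), were also higher. *Pnpla2*, which encodes adipose triglyceride lipase, was at 653 to 678 TPM in K382Q and 665 to 689 TPM in K382R cells and did not pass the test (log2 fold change -0.01, 95% interval -0.08 to 0.05, adjusted p = 0.746), although with median-ratio scaling it was called higher (0.14).

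Of 12 genes of fatty acid synthesis, which feeds the acyltransferases, 6 were higher and 5 lower in K382Q cells (median 0.19), again beside 11.1% and 36.9% of all tested genes. The counts were 7 and 2 with median-ratio scaling and 6 and 2 with quantile normalization. The largest positive difference was that of *Thrsp*, a lipogenic regulator of adipocytes and liver, at 12.98, 14.9 and 15.5 TPM against 2.55, 2.04 and 2.87 TPM (log2 fold change 2.33, adjusted p = 5.88e-06). *Acacb*, the mitochondrial acetyl-CoA carboxylase (1.26, adjusted p = 1.37e-06), *Scd2*, a stearoyl-CoA desaturase (0.88, adjusted p = 6.92e-07), and *Mlxipl*, which encodes ChREBP (0.75, adjusted p = 0.000935), were also higher. The 5 called lower were *Acly*, *Acaca*, *Fasn*, *Elovl6* and *Slc25a1*, with log2 fold changes of -0.50 to -0.11, and of these only *Acly* and *Elovl6* were called lower under every alternative tried. The call of *Acaca* was lost without any 1 of the 6 libraries, and that of *Slc25a1* without replicate 1 of either mutant, K382Q replicate 3 or K382R replicate 2.

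**Figure D5:**
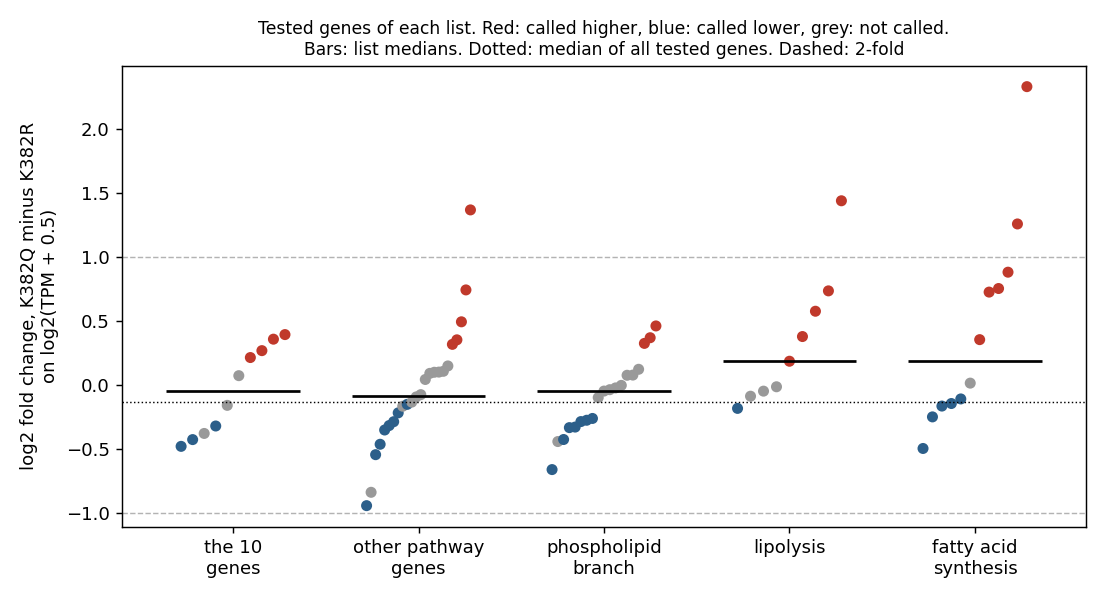
Log2 fold change, K382Q minus K382R, of each tested gene in the set of 10, the other pathway genes, the phospholipid branch, lipolysis and fatty acid synthesis (points; red called higher, blue called lower, grey not called), with the list medians as bars. Dashed lines mark a 2-fold difference, which no gene of the set of 10 reaches, and the dotted line marks the median of all tested genes.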

How the data were processed

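RNA was measured in 6 libraries, 3 biological replicates each of PPARγ2 K382Q and K382R cells, grouped by their labels. Per the study's methods, a NEBNext Ultra kit was used for library preparation, both ends of the fragments were sequenced, adapters were trimmed with TrimGalore, and reads were aligned to GRCm39 with HISAT2 and quantified with StringTie. The release of the gene annotation is not given in the sources used here. The authors deposited 1 table per library with 56884 gene IDs, after entries of the same ID (at most 5 in a library) were summed. Every library's deposited TPM adds up to 1 common total, the deposited FPKM is relative to the aligned bases of the library, and the deposited coverage signal is the mean read depth per base. The ratio of coverage to FPKM gave 5.95 to 8.15 Gb of aligned sequence per library. Read counts were not used here, so intervals come from the spread between 3 replicates.

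K382Q was compared with K382R using limma 3.58.1 (R 4.3.3) and its intensity trend. Values entered as log2(TPM + 0.5). The 15426 genes tested reached 0.5 TPM in 3 or more of the 6 libraries, and p-values were adjusted over all of them by Benjamini-Hochberg. A gene was called at an adjusted p under 0.05, and a fold change over 2 was a further threshold taken from the study. Fold changes on this scale understate those of low genes. Other steps used Python 3.11.15, pandas 2.3.3, numpy 2.4.6 and matplotlib 3.10.9. Every gene of the set is named, as are *Pparg*, the isoenzymes of a step, and from each of the other pathway lists (other pathway genes, phospholipid branch, lipolysis and fatty acid synthesis) the genes past both thresholds, or, where fewer than 4 passed, the 4 largest differences called at a mean TPM of at least 1. A few further genes of these lists and of the marker lists were named after their values were seen. The members and the lists were chosen with earlier results of these data known. *Ldaf1* and *Pc* of the list of pathway genes were matched under the older symbols *Tmem159* and *Pcx*. The alternatives were pseudocounts of 1 and 0.1, no filter, a TPM of at least 1, FPKM, quantile normalization, median-ratio scaling, a fit with no intensity trend, the replicate number as a block and each library left out.

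The test was tried on simulated data for K382Q against K382R with 15426 genes, where it called 55 of 100 genes changed by 0.5 and 85 of 100 changed by 1 on the log2 scale, and 5 unchanged genes. Only those genes were changed, and no difference in scaling between the mutants was simulated. In the data 7415 genes were called, so these rates do not carry over to them. No pair of libraries had identical values in more than 0.0117% of genes. On the first principal component (61.3% of the variance) the mutants stood apart.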

Additional observations from a re-analysis of the deposited data

How the results depend on the processing

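The 7 members called on TPM, and the 16 genes that the naming rule took from the other lists, kept their call and direction under all alternatives run. The members called higher were 4, or 5 through *Dgat2* with either scaling or with FPKM, and those called lower were 3, or 4 without K382Q replicate 2 or K382R replicate 3 through *Gpam*. Scaling moved the balance of calls. Of all tested genes 1717 were higher and 5698 lower on TPM, against 3057 and 3153 with median-ratio scaling and 2954 and 3241 with quantile normalization, so the share of called genes that were higher went from 23.2% to 49.2% and 47.7%. Genes called with a fold change over 2 numbered 599 on TPM, 377 with FPKM, 443 with a pseudocount of 1 and 889 with a pseudocount of 0.1. The median of the members turned from -0.04 to 0.074 with a TPM of at least 1, 0.16 with FPKM, 0.11 with median-ratio scaling and 0.089 with quantile normalization. Of these, the first 2 leave out *Pck1*. The other pathway genes called higher went from 5 to 8 with median-ratio scaling and 9 with quantile normalization. For the phospholipid branch, 3 higher became 5 and 7 lower became 4 with either scaling. For lipolysis, 1 lower became 2 with a TPM of at least 1 and 0 with median-ratio scaling, and 1 to 2 with a library left out. For fatty acid synthesis, 5 lower became 3 without a filter, with FPKM and without an intensity trend, 2 with median-ratio scaling or quantile normalization, and 3 to 4 with a library left out. Same-numbered libraries did not deviate together over all tested genes (correlations of -0.0177, 0.0507 and 0.0223). Whether they were handled together is not given in the labels, and these correlations cannot show it. With the replicate block 4 members were called higher and 3 lower. *Pck1* had the lowest depth of the members, at no more than 3.33 reads per base, and the part of depth in its result was not tested.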
